A study of Mus musculus with 6 samples.

Results

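The genes described here are 36 macrophage and myeloid genes, chosen by symbol and matched to 36 of the 45320 Ensembl gene identifiers of the brown adipose tissue tables. They fall into 4 classes by known role: 16 pan-macrophage genes, 8 resident and alternatively activated genes, 5 lipid-associated genes, and 7 genes of inflammation and recruitment. The tissue came from C57BL/6 mice that started a diet rich in calories, fat and sugar at 4 weeks of age. After 4 weeks on it, some mice went on with the diet and no drug (untreated 13, 14 and 15). For the others RO5508887 was added to that diet, a drug that blocks BACE1, the β-secretase (treated 17 and 33/35). The values deposited for treated samples 33 and 35 were identical for all 45320 identifiers, so they differed by less than sampling noise and were counted as 1 sample, leaving 3 untreated and 2 treated libraries. Nothing in the labels states that each sample is a different animal, so spread and p-values refer to these samples and may be technical. The sources used here give no dose or length of treatment, and every group carries the diet.

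Macrophages settle in adipose tissue before birth and are joined later by cells that arise from blood monocytes. Resident cells carry scavenger and endocytic receptors such as CD206 (Mrc1) and CD163. Lipid-associated macrophages form around dying, lipid-laden adipocytes and are known for TREM2, a lipid-sensing receptor that signals through the adaptor TYROBP. Monocytes enter through the chemokine CCL2 and its receptor CCR2, and activated cells release TNF and IL-1β. In brown fat, macrophages also clear material shed by the heat-producing adipocytes.

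Values are FPKM (fragments per kilobase of transcript, scaled to the mapped fragments of the library), so levels of different genes can be compared per length. Read totals were unknown. Steps between low values put the depth of the other 4 libraries at 0.811 to 1.01 times that of untreated 13. Ucp1, which defines brown adipocytes, stood at 1119 to 1912 FPKM in 4 libraries and at 227 FPKM in untreated 14. The 8 brown adipocyte markers summed to 2873 FPKM in untreated 14 and to 6123 to 8308 FPKM in the others. Skeletal muscle markers separated the libraries: the summed FPKM of 33 markers was 178 and 166 in untreated 13 and 15, 43224 in untreated 14, 17420 in treated 17 and 7637 in treated 33/35, with no marker listed at 0. Untreated 14 thus stood apart before any comparison, and results are given with and without it where they differ.

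Promoter sequences are shown for 4 genes. Retnla had the largest estimate among the resident genes, and Cd68 is a classical macrophage marker. C1qb and C1qc ranked the 5 libraries in the same order. Retnla, Cd68 and C1qc hold matches to the site forms below, and most of the genes searched do not. C1qa, C1qb and C1qc lie side by side on chromosome 4 (chr4:136895917-136898803, chr4:136880129-136886187 and chr4:136889804-136893065, GRCm38, GENCODE M21). The sequences come from RefSeq (GRCm38.p6), run 5′ to 3′ on the gene's own strand, and begin 250 bases before the RefSeq start site. They stop at that site or where the GENCODE gene begins, whichever comes first. Capitals mark matches to GAGGAAGT, a site form of the myeloid factor PU.1, or to TGACTCA, a site form of AP-1, on either strand.
C1qb (chr4:136886201-136886450, minus strand): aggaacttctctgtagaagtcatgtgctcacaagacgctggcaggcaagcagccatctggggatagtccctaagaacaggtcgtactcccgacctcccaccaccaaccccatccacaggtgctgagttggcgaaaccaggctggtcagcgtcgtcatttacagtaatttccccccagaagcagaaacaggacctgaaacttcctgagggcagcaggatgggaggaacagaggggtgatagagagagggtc
C1qc (chr4:136893066-136893164, minus strand): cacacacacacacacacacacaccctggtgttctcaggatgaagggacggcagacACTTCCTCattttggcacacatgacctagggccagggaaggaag
Retnla (chr16:48842359-48842550, plus strand): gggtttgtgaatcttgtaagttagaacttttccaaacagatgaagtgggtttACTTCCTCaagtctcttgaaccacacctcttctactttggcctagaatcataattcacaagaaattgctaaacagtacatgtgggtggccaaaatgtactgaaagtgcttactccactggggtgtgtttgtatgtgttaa
Cd68 (chr11:69666171-69666420, minus strand): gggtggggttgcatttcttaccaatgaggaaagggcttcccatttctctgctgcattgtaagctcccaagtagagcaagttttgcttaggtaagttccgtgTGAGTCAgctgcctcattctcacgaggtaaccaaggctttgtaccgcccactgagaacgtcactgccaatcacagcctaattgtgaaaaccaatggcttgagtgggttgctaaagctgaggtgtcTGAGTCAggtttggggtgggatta
The RefSeq table held promoters for 28 of the 36 genes. In the 250 bases before the start, the PU.1 letters were found in 2 of these 28 genes (7.14%; C1qc and Retnla) and in 2.79% of the 27025 genes of the table (2.44% of its 32851 promoters). The AP-1 letters were found in 3 genes (10.7%; Cd68, Folr2 and Itgax), against 5.16% of all genes (4.46% of promoters), and Cd68 held them at 2 places. TCACGTGA and TCATGTGA, box forms of the lysosomal factors MITF and TFE, were found in 0 of the 28 and in 1.87% of all genes (1.61% of promoters). A match is a run of letters and not a shown binding site.

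Levels differed widely among the 36 genes. Lyz2, the lysozyme of macrophages, was the highest, at 89.0, 95.3 and 64.5 FPKM for untreated 13, 14 and 15, against 66.1 and 97.2 FPKM for treated 17 and 33/35. In all, 29 genes reached a mean of at least 1 FPKM and were tested. The other 7 were Arg1, Tnf, Timd4, Il1b, Cx3cr1, Itgax and Fcgr1. The last of these lay just outside the filter at a mean of 0.843 FPKM, and Lyz1 just inside it at 1.30 FPKM. The plot of values by library shows the levels of all 36.

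**Figure D1:**
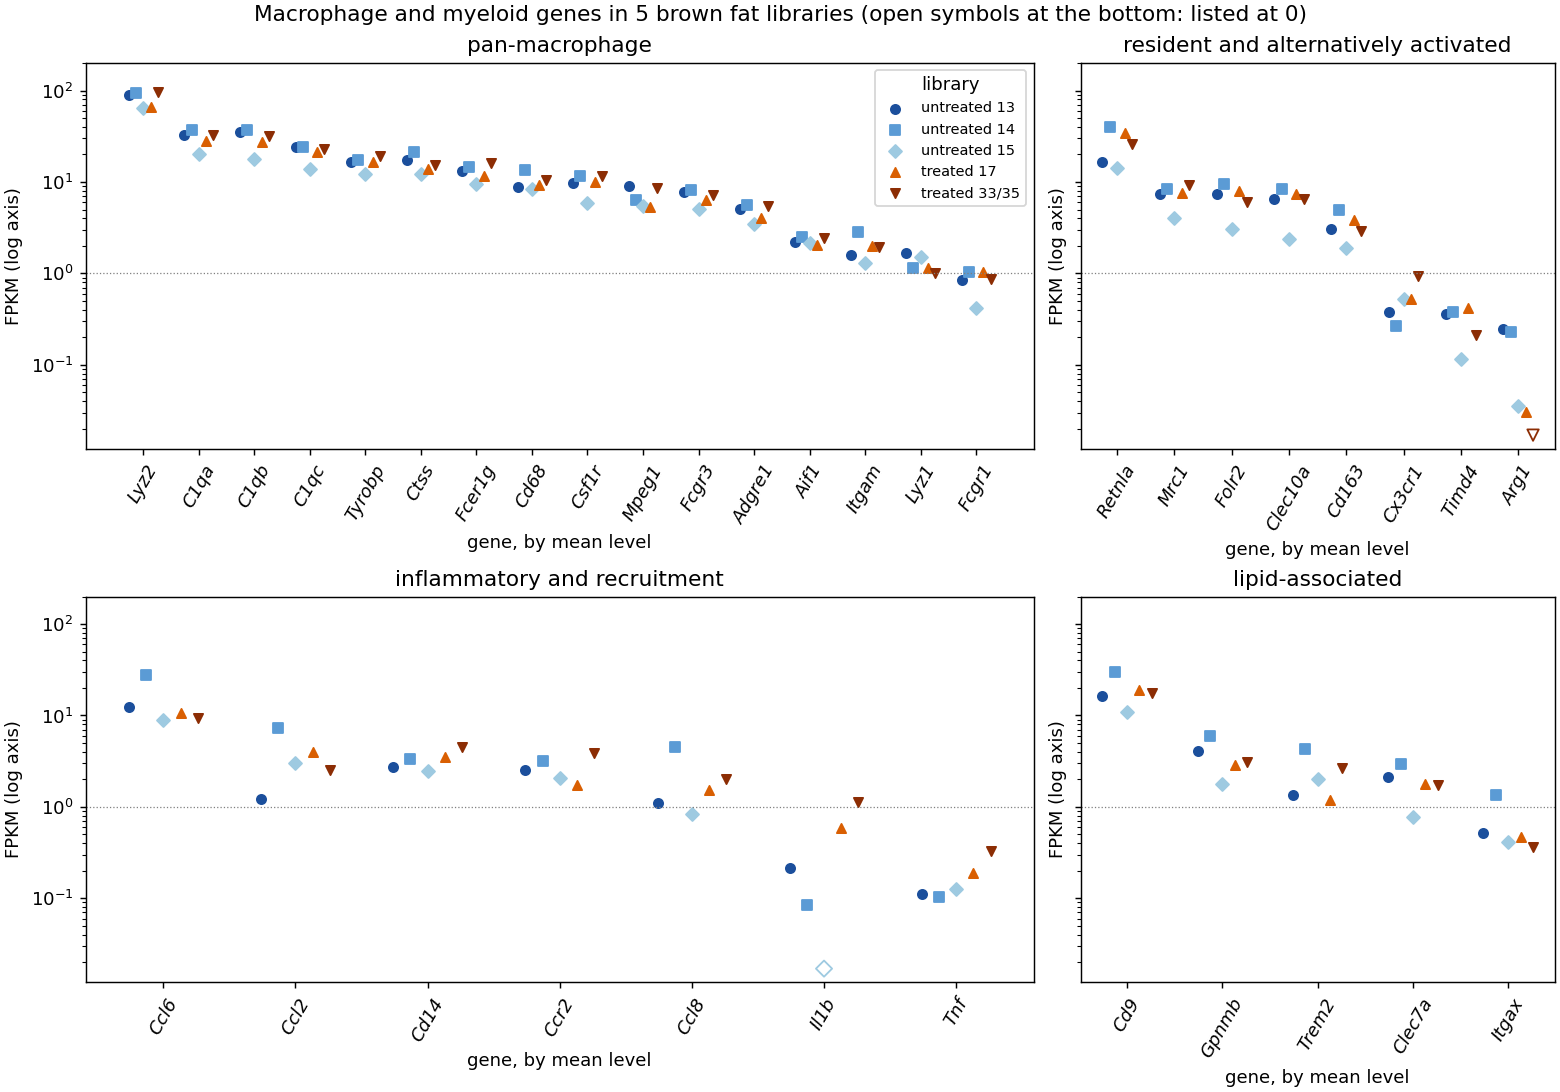
FPKM on a log axis (vertical) for each gene (horizontal, ordered by mean level) in 4 panels, 1 per class, with 1 symbol per library: blue for untreated 13, 14 and 15, orange and brown for treated 17 and 33/35. The dotted line is 1 FPKM, and open symbols at the bottom are values listed at 0 (Arg1 in treated 33/35 and Il1b in untreated 15). Untreated 15 is the lowest library for most genes, and treated and untreated symbols overlap in all genes but Cd14, Tnf, Il1b and Arg1. Tnf, Il1b and Arg1 are below the filter, and the share of all genes without overlap was computed only above it.

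Of the 29 genes, 0 passed the test between treated and untreated (limma, Benjamini-Hochberg over all 13527 tested genes), and 0 had an unadjusted p under 0.05. Over all 13527 tested genes 6 passed, or 0.0444%, and only 125 had an unadjusted p under 0.05. Treated means on the log2 scale were higher in 20 and lower in 9 of the 29 genes, that is 69.0% higher against 64.3% of all tested genes. By FPKM means the split was 15 higher and 14 lower. Counts of higher and lower treated means below are on this log2(FPKM + 0.5) scale unless FPKM means are named. The median log2 fold change was 0.05, against 0.06 over all tested genes. Only Cd14 lay above every untreated library in both treated ones, where 5.5% of all tested genes did, and 0 of the 29 lay below, where 3.18% did. Without untreated 14, again 0 of the 29 genes passed, against 1.18% of all tested genes, and 26 of the 29 had higher treated means (median log2 fold change 0.25, 0.01 over all tested genes). Without untreated 15 the split was the opposite, with 6 higher and 23 lower members (57.6% of all tested genes higher). With the muscle marker level as a covariate it was also 6 and 23 (57.2% higher). Centring each library on its median, which lowered the median of all genes from 0.06 to -0.05, gave 9 higher and 20 lower members (39.8% of all genes higher), and quantile normalization gave 11 and 18.

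**Figure D2:**
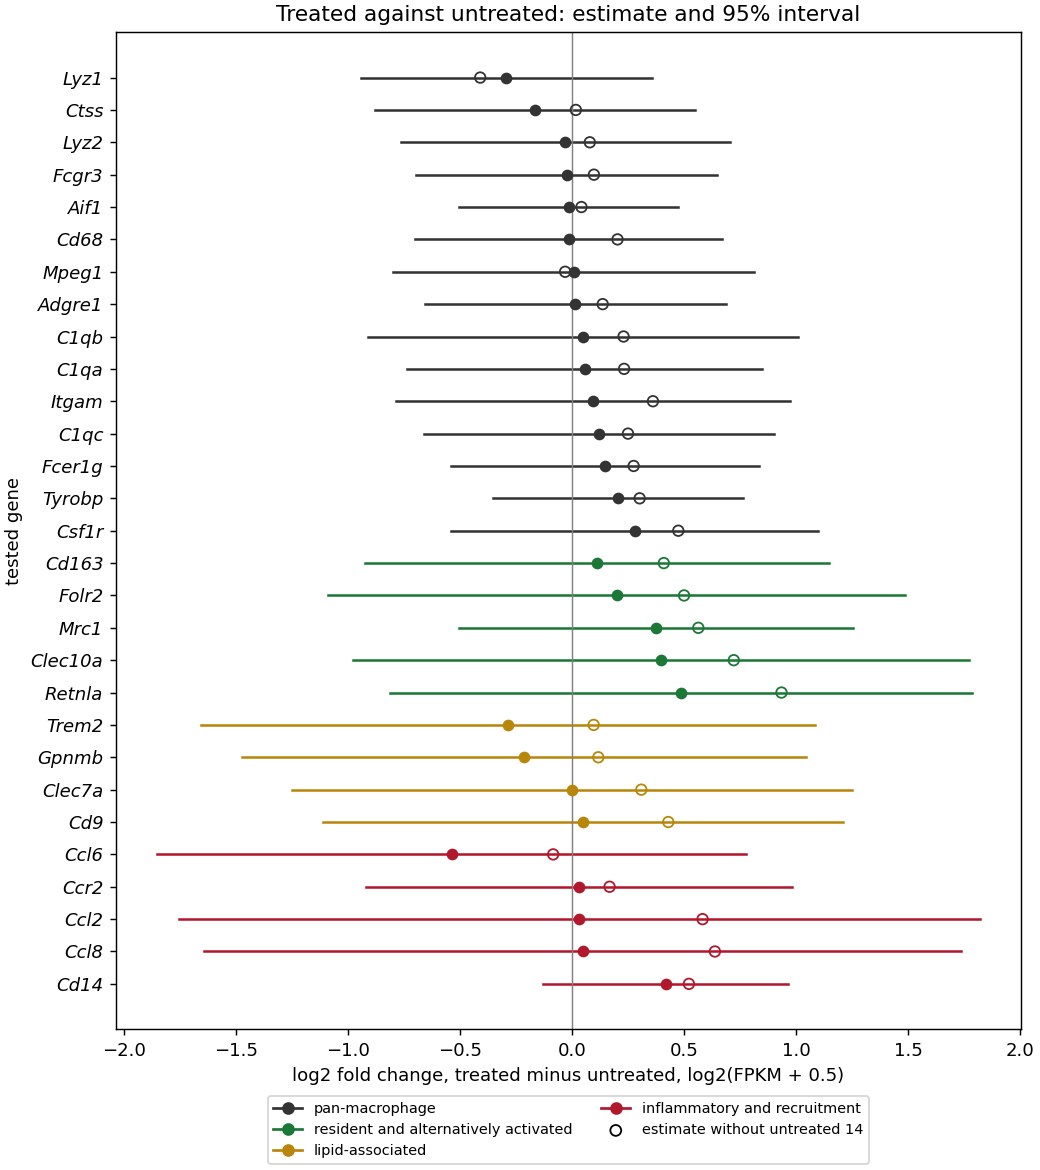
Log2 fold change of treated minus untreated on the log2(FPKM + 0.5) scale (horizontal) for the 29 tested genes (vertical), coloured by class, with filled points for the estimate from 5 libraries, bars for its 95% interval and open circles for the estimate without untreated 14. Every interval holds 0, and the estimates run from -0.54 (Ccl6) to 0.49 (Retnla).

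Differences between libraries of 1 group had an order that most of the genes shared. Untreated 15 was the lowest of the 5 libraries in 23 of the 29 tested genes and the highest in 0, whereas it was lowest for 25.4% of all tested genes. Untreated 14 was the highest in 21 of the 29 and lowest in 0, against 33.5% of all tested genes where it was highest. That library also had the most muscle and the least brown adipocyte transcripts, and their part in this order was not tested. Treated 33/35 was the highest in 6 genes and untreated 13 in 2. Untreated 13 and 15 had similar sums of muscle markers, at 178 and 166 FPKM, of which Myl1 gave 120 and 117 FPKM. Of the 29 genes, 27 were lower in untreated 15 than in untreated 13 (median difference on the log2 scale -0.48). Over all tested genes 59.6% were lower (median -0.05), and the cause was not tested. Beside this, all 5 fibroblast markers and all 5 tested mast cell markers were also lowest in untreated 15. The summed FPKM of the fibroblast markers was 200 there and 391 to 614 in the other libraries. The endothelial markers summed to 149 FPKM in untreated 15 and to 124 to 151 FPKM in the others. In bulk tissue, fewer macrophages and less RNA per macrophage cannot be told apart.

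**Figure D3:**
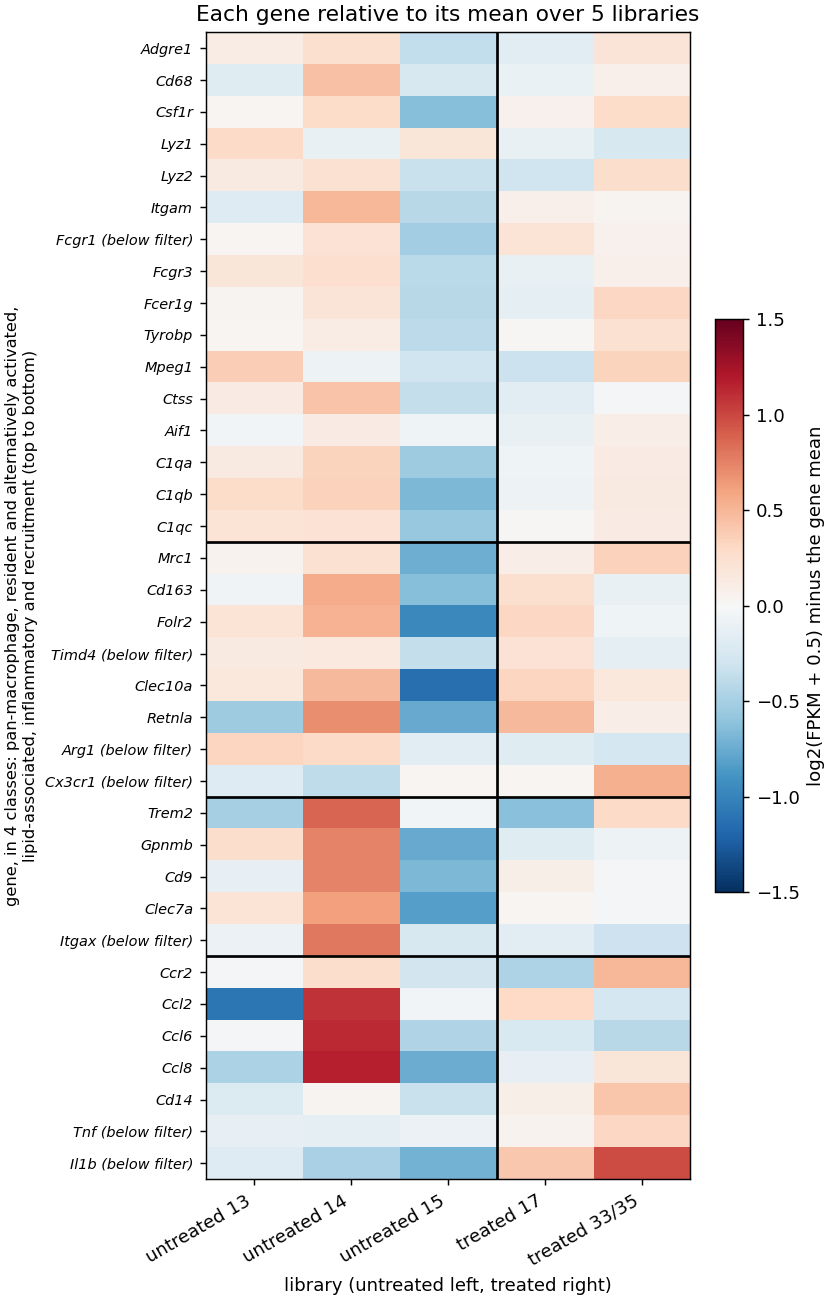
Each gene's log2(FPKM + 0.5) minus its mean over the 5 libraries (colour, red above and blue below the mean), with genes in rows by class and libraries in columns, untreated left of the line and treated right of it. The column of untreated 15 is blue for most genes and that of untreated 14 red for most, including the lipid-associated genes and Ccl2, Ccl6 and Ccl8.

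Pan-macrophage genes, which mark macrophages whatever their state, had treated and untreated values that overlapped in each of the 15 tested members. All 15 that were tested were lower in untreated 15 than in untreated 13, and 12 of them were lowest there among the 5 libraries. Their highest and lowest libraries differed by 1.22-fold (Aif1) to 2.23-fold (Itgam), and the class median of the log2 fold change was 0.01. Of the 15, 9 had higher and 6 lower treated means, and 0 passed.

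Adgre1 encodes F4/80, the surface receptor by which mouse macrophages are usually recognised. It stood at 5.08, 5.595 and 3.50 FPKM for untreated 13, 14 and 15, against 4.08 and 5.40 FPKM for treated 17 and 33/35. The treated values lay within the untreated range, and the group means were 4.73 ± 1.09 (SD, n = 3) and 4.74 ± 0.936 FPKM (SD, n = 2). Cd68, a lysosomal glycoprotein, measured 8.72, 13.7 and 8.32 FPKM without and 9.26 and 10.5 FPKM with the drug. It was highest in untreated 14, and the treated values lay between that library and the other untreated ones. Csf1r, the receptor for the growth factor that keeps macrophages alive, measured 9.69, 11.6 and 5.94 FPKM without and 9.97 and 11.6 FPKM with the drug. Its estimate of 0.28 (SE 0.31, limma adjusted p = 1.00) was the highest of the class.

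The C1q genes encode the chains of the first complement component, which tissue macrophages secrete. C1qa stood at 32.5, 37.3 and 20.4 FPKM for untreated 13, 14 and 15, against 28.4 and 32.4 FPKM for treated 17 and 33/35. C1qb measured 34.9, 36.7 and 17.9 FPKM without the drug and 27.3 and 31.8 FPKM with it. C1qc measured 24.4, 24.4 and 14.0 FPKM without and 21.3 and 22.9 FPKM with it. Each of them was lowest in untreated 15, with the treated values within the untreated range. The level of each varied 1.74- to 2.05-fold, and the 5 libraries stood in the same order for all 3 genes. The log2 fold changes were 0.06 (SE 0.30), 0.05 (SE 0.37) and 0.12 (SE 0.30).

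Signalling adaptors, Fc receptors and Itgam were also lowest in untreated 15. Tyrobp, the adaptor that carries signals of TREM2, measured 16.6, 17.5 and 12.3 FPKM without and 16.4 and 19.1 FPKM with the drug. Fcer1g, the common γ chain of Fc receptors, measured 13.2, 14.8 and 9.45 FPKM without and 11.7 and 15.96 FPKM with it. Both were highest in treated 33/35 and lowest in untreated 15, and the groups overlapped because treated 17 lay below untreated 13 and 14. Fcgr3, a low-affinity receptor for IgG, ranged from 5.01 to 8.23 FPKM in the untreated libraries and measured 6.30 and 7.24 FPKM in the treated ones. Fcgr1, the high-affinity receptor, was below the filter at 0.851, 1.04 and 0.418 FPKM without and 1.03 and 0.879 FPKM with the drug. Itgam, the integrin CD11b, measured 1.58, 2.87 and 1.29 FPKM without and 2.005 and 1.95 FPKM with it.

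The remaining genes of the class code for enzymes and effectors of the phagocyte. Ctss, the lysosomal protease cathepsin S, measured 17.2, 21.3 and 12.1 FPKM without and 13.9 and 15.4 FPKM with the drug. Mpeg1, the pore-forming perforin-2, measured 8.94, 6.41 and 5.42 FPKM without and 5.35 and 8.68 FPKM with it. Mpeg1 departed from the common order, with treated 17 lowest and untreated 13 highest. Aif1, the actin-binding protein IBA1, varied least, from 2.06 FPKM in treated 17 to 2.52 FPKM in untreated 14. Lyz1, a close copy of Lyz2 on chromosome 10 whose reads may be shared with it, measured 1.67, 1.15 and 1.52 FPKM without and 1.15 and 1.01 FPKM with the drug. Its split from Lyz2 is uncertain, since the counting of shared reads was not given in the sources used here.

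Resident and alternatively activated genes had higher treated means in 5 of 5 tested members, with a class median of 0.37, and 0 passed. All 5 were lowest in untreated 15, and 4 were highest in untreated 14. The class median was 0.56 without untreated 14 and -0.09 without untreated 15. It was -0.10 when the muscle marker level was a covariate.

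Mrc1, the mannose receptor CD206, stood at 7.38, 8.43 and 4.09 FPKM for untreated 13, 14 and 15, against 7.65 and 9.19 FPKM for treated 17 and 33/35. Treated 17 lay between untreated 13 and 14, and treated 33/35 above both. The log2 fold change was 0.37 (95% interval -0.51 to 1.25, limma adjusted p = 1.00). Cd163, the scavenger receptor for haemoglobin, measured 3.07, 4.93 and 1.88 FPKM without and 3.86 and 2.94 FPKM with the drug. Folr2, a folate receptor of resident macrophages, measured 7.44, 9.44 and 3.05 FPKM without and 8.05 and 6.11 FPKM with it. Clec10a, a galactose-binding lectin, measured 6.49, 8.29 and 2.37 FPKM without and 7.34 and 6.46 FPKM with it. These 3 shared 1 order, from untreated 14 through treated 17, untreated 13 and treated 33/35 down to untreated 15.

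Retnla encodes RELM-α, a secreted product of alternatively activated macrophages (chr16:48842551-48844461). It stood at 16.7, 39.8 and 14.2 FPKM for untreated 13, 14 and 15, against 34.3 and 26.1 FPKM for treated 17 and 33/35. Both treated values lay above untreated 13 and 15 and below untreated 14. The untreated mean was 23.6 ± 14.1 FPKM (SD, n = 3), the treated mean 30.2 ± 5.84 FPKM (SD, n = 2). On the log2 scale they differed by 0.49 (SE 0.50), with a limma adjusted p = 1.00. Without untreated 14 it was 0.94, and without untreated 15 it was 0.21. As for Itgam, Cd9 and Fcgr1, the 5 libraries stood in the same order for Retnla as for the summed muscle markers. All other members had other orders, and the share of all tested genes with this order was not computed. With the muscle marker level as a covariate the estimate for Retnla was -0.10. With 5 libraries, such a fit cannot tell muscle tissue from other traits of untreated 14. The part of muscle tissue was not tested. Relative to the C1q mean of the same library, Retnla stood at 54.6% in untreated 13, 121% in untreated 14, 81.5% in untreated 15, 134% in treated 17 and 89.7% in treated 33/35.

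Low members of the class were below the filter. Timd4, the phosphatidylserine receptor TIM-4 of long-lived resident cells, ranged from 0.115 FPKM in untreated 15 to 0.419 FPKM in treated 17. Cx3cr1, the fractalkine receptor, measured 0.375, 0.267 and 0.523 FPKM without and 0.521 and 0.946 FPKM with the drug. Arg1, the arginase of alternatively activated macrophages, measured 0.249, 0.230 and 0.0353 FPKM without the drug and 0.0306 FPKM in treated 17, and was listed at 0 in treated 33/35. Its treated values were below all untreated ones, but untreated 15 and treated 17 were nearly equal.

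Lipid-associated genes were highest in untreated 14 in each of the 5 members. By FPKM means all 4 tested ones were lower in the treated group. On the log2 scale 2 were higher (Cd9 at 0.05 and Clec7a at 0.00) and 2 lower, with a class median of -0.11, and 0 passed. The class median turned to 0.21 without untreated 14 and was -0.38 without untreated 15.

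Trem2 (chr17:48346401-48354147) stood at 1.34, 4.27 and 2.04 FPKM for untreated 13, 14 and 15, against 1.19 and 2.67 FPKM for treated 17 and 33/35. The treated libraries held the lowest and the second highest value, and the estimate was -0.28 (SE 0.52; adjusted p = 1.00, limma). Unlike most members, Trem2 was higher in untreated 15 than in untreated 13. Relative to the C1q mean it stood at 4.39% in untreated 13 and 4.63% in treated 17, but at 13.0%, 11.7% and 9.18% in untreated 14, untreated 15 and treated 33/35. The level of its adaptor Tyrobp did not follow it, being higher in untreated 13 than in untreated 15.

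Gpnmb, a glycoprotein of lysosome-rich macrophages, measured 4.11, 5.93 and 1.76 FPKM without and 2.88 and 3.13 FPKM with the drug. Clec7a, the β-glucan receptor dectin-1, measured 2.10, 2.97 and 0.779 FPKM without and 1.80 and 1.72 FPKM with it. Both had their highest and lowest values among the untreated libraries. Cd9, a tetraspanin that many other cell types also express, measured 16.2, 30.1 and 11.0 FPKM without and 18.9 and 17.5 FPKM with the drug. Itgax, the integrin CD11c, was below the filter at 0.516, 1.36 and 0.415 FPKM without and 0.466 and 0.365 FPKM with it. In these 4 genes untreated 14 was the highest library.

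Genes of inflammation and recruitment included the widest range among the tested members. Of the 5 tested members of the class, 4 had higher and 1 lower treated means on the log2 scale, with a class median of 0.03, and 0 passed. By FPKM means 2 were higher (Ccr2 and Cd14) and 3 lower (Ccl2, Ccl6 and Ccl8). The class median was 0.52 without untreated 14, -0.18 without untreated 13 and -0.68 with the muscle covariate.

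Ccl2, the main monocyte attractant (chr11:82035571-82037453), stood at 1.21, 7.22 and 3.05 FPKM for untreated 13, 14 and 15, against 3.97 and 2.54 FPKM for treated 17 and 33/35. It varied 5.97-fold, the most of the tested members, and both extremes were untreated. Ccl8, a chemokine gene on the same chromosome (chr11:82115185-82116799), measured 1.10, 4.47 and 0.828 FPKM without and 1.54 and 2.01 FPKM with the drug. Ccl6, a chemokine of myeloid cells (chr11:83587882-83593087), measured 12.3, 27.8 and 9.01 FPKM without and 10.6 and 9.29 FPKM with it. Each of the 3 chemokines was highest in untreated 14, the library with the most muscle transcripts. The estimate for Ccl6 was -0.54 (SE 0.50; adjusted p = 1.00, limma), which shrank to -0.08 without untreated 14. With the muscle covariate it was -1.12, and Ccl6 alone of the 29 genes passed as lower there (limma adjusted p = 0.0266). In that fit 1766 of the 13527 tested genes passed, a larger share than 1 of the 29 members. It had fewer residual degrees of freedom than the fit without the covariate. The adjusted p of Ccl6 was 0.766 or above in every other setting tried. Ccr2, the receptor of CCL2 on monocytes, measured 2.52, 3.19 and 2.05 FPKM without and 1.73 and 3.86 FPKM with the drug. The treated libraries held its lowest and highest values.

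Cd14, a co-receptor for bacterial lipopolysaccharide, stood at 2.75, 3.36 and 2.47 FPKM for untreated 13, 14 and 15, against 3.48 and 4.49 FPKM for treated 17 and 33/35. Both treated values were above all untreated ones, though treated 17 exceeded untreated 14 only slightly. The untreated mean was 2.86 ± 0.454 FPKM (SD, n = 3) and the treated mean 3.99 ± 0.717 FPKM (SD, n = 2). The log2 fold change was 0.42 (95% interval -0.13 to 0.96, limma adjusted p = 1.00), and it stayed between 0.25 and 0.58 in the alternatives.

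The inflammatory cytokines were very low. Il1b (chr2:129364570-129371139), which encodes IL-1β, measured 0.216 and 0.0845 FPKM in untreated 13 and 14, was listed at 0 in untreated 15, and measured 0.584 and 1.12 FPKM in treated 17 and 33/35. Tnf measured 0.111, 0.102 and 0.125 FPKM without and 0.191 and 0.328 FPKM with the drug. In both, the treated values lay above all untreated ones, and treated 33/35 was highest. Neither reached the filter of 1 FPKM, below which the share of genes with such treated values was not computed. With the filter at 0.1 FPKM, the estimate was 1.16 for Il1b (SE 0.26; unadjusted p = 0.00761, adjusted p = 1.00, limma) and 0.30 for Tnf (SE 0.15). Neutrophils also express Il1b, and of 11 neutrophil markers 4 or 5 were listed at 0 in each library. Camp and Ngp of this list were at 0 in all 5, whereas S100a8, S100a9, Csf3r and Cxcr2 were above 0 in all 5. The summed FPKM of the neutrophil markers was 2.28 to 5.11 in the untreated and 2.99 to 3.01 in the treated libraries. Which cells gave the Il1b transcripts was not tested.

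**Figure D4:**
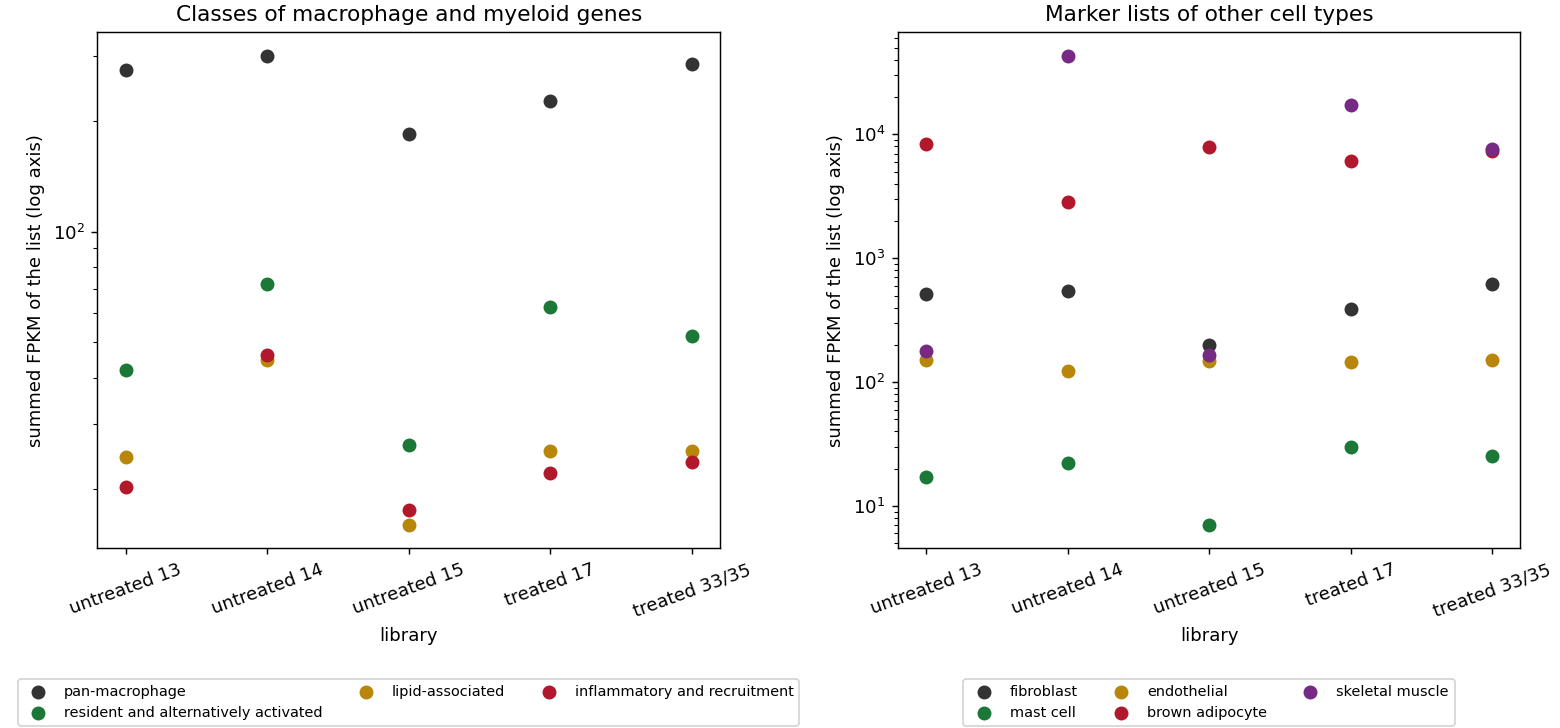
Summed FPKM on a log axis (vertical) in each library (horizontal) for the 4 classes of macrophage and myeloid genes (left) and for marker lists of 5 other cell types (right). Pan-macrophage genes sum to 274, 300 and 184 in untreated 13, 14 and 15 and to 226 and 285 in treated 17 and 33/35, and fibroblast and mast cell markers are also lowest in untreated 15.

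Class sums weigh the highest genes of each class most, such as Lyz2, Retnla, Cd9 and Ccl6. Pan-macrophage genes summed to 274, 300 and 184 FPKM in untreated 13, 14 and 15 and to 226 and 285 FPKM in treated 17 and 33/35. Resident and alternatively activated genes summed to 42.1, 71.8 and 26.3 FPKM without and 62.2 and 51.9 FPKM with the drug. Lipid-associated genes summed to 24.3, 44.6 and 15.97 FPKM without and to 25.3 FPKM in both treated libraries. Inflammatory and recruitment genes summed to 20.2, 46.2 and 17.5 FPKM without and 22.1 and 23.6 FPKM with it. In every class the treated sums lay within the untreated range. The single values of Cd14, Tnf and Il1b (above) and Arg1 (below) did not. The highest untreated sum was that of untreated 14 in every class. Without it, both treated sums were above untreated 13 and 15 in the resident, lipid-associated and inflammatory classes. For the pan-macrophage genes only treated 33/35 was above both. From untreated 13 to untreated 14 the pan-macrophage genes differed by a median of 0.13 on the log2 scale, the resident genes by 0.33, the lipid-associated genes by 0.67 and the recruitment genes by 1.15.

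Further genes of macrophage biology, taken from lists chosen by known function, gave 0 calls in either direction (limma, adjusted over all tested genes). Among 13 tested genes of the myeloid lineage and its growth factors, 7 had higher and 6 lower treated means (median log2 fold change 0.01). Csf2ra, the GM-CSF receptor chain, was lower in both treated libraries than in all untreated ones, at 3.38 and 3.30 FPKM against 3.51 to 4.18 FPKM. Spi1, the gene of PU.1, measured 2.65, 3.62 and 3.07 FPKM without and 2.75 and 3.39 FPKM with it.

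Of 11 other resident macrophage genes tested, 8 had higher and 3 lower treated means (median 0.18). Selenop, a secreted selenium carrier, had 0.29 (SE 0.24) and Lyve1, a hyaluronan receptor, -0.45 (SE 0.58). Selenop ranged from 1578 FPKM in untreated 14 to 2432 FPKM in treated 33/35, whereas 9 of the 11 genes were highest in untreated 14. Which cells gave the Selenop transcripts was not tested. Of 13 other lipid-handling and lysosomal genes, 6 had higher and 7 lower means (median -0.02). Mmp12, the macrophage elastase, measured 7.46 FPKM in untreated 14 and 1.20 to 2.27 FPKM in the other libraries. Lgals3, galectin-3, had a log2 fold change of -0.41 (SE 0.36). Lpl, Cd36 and Plin2 of this list, at 189 to 919 FPKM, are also genes of adipocytes.

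Of 11 other inflammatory genes tested, 8 had higher and 3 lower treated means (median 0.10). Nos2, the inducible nitric oxide synthase, measured 2.02, 2.05 and 2.23 FPKM without and 2.996 and 3.60 FPKM with it. For Nos2 both treated values exceeded all untreated ones, with an estimate of 0.54 (SE 0.18; unadjusted p = 0.0299, adjusted p = 1.00, limma). Tlr2, a receptor for bacterial lipoproteins, had 0.39 (SE 0.38). Ccl7, another ligand of CCR2, measured 0.584, 7.34 and 1.99 FPKM without and 3.18 and 1.69 FPKM with the drug, which is the library order of Ccl2.

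Of 4 tested genes that act below ITAM adaptors such as TYROBP, 2 had higher and 2 lower treated means (median -0.02). Lyn, a Src family kinase, had 0.25 (SE 0.16) and Ptpn6, a phosphatase, -0.08 (SE 0.19). Of 7 genes of complement receptors and C3, 4 had higher and 3 lower means (median 0.13), with Itgb2, the β2 integrin, at -0.33 (SE 0.34) and C5ar1, the C5a receptor, at -0.17 (SE 0.27).

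Lymphocyte markers were low. The 4 B cell markers summed to 0.826 to 2.61 FPKM, the 6 T cell markers to 0.616 to 1.91 FPKM and the 4 NK cell markers to 0.502 to 1.82 FPKM over the 5 libraries, and 0 of these 14 reached the filter. Of 8 dendritic cell markers 3 were tested (median log2 fold change 0.23), and all 8 summed to 8.31 to 11.9 FPKM. Mast cell markers summed to 17.1, 22.0 and 7.06 FPKM without and 30.01 and 25.5 FPKM with the drug, so their treated sums were above all untreated ones. The treated sums of the macrophage classes were below untreated 14. Those of the resident, lipid-associated and inflammatory classes were above untreated 13 and 15. Of the 5 mast cell markers tested, 0 passed (median 0.95). Of the tested neutrophil markers S100a8 and S100a9 had -0.46 (SE 0.51) and -0.04 (SE 0.30), a median of -0.25. The erythroid markers, which stand for blood left in the tissue, summed to 3711 FPKM in untreated 13 and 1137 to 1934 FPKM in the other libraries (median -0.18). The medians were 0.34 for 8 brown adipocyte, 0.14 for 5 endothelial and 0.34 for 5 fibroblast markers, and 3.94 for the 33 muscle markers. By FPKM means, however, 2 muscle markers were higher and 31 lower in the treated group, and untreated 14 was highest for all 33. Of the brown adipocyte markers, 7 were higher and 1 lower by FPKM means.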

How the data were processed

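RNA came from whole tissue by Trizol extraction and went into total RNA libraries for Illumina sequencing (labels' protocols). For each sample the authors deposited a table of FPKM values, per the file headers. The submitters' processing notes list CASAVA 1.7 and GRCm38. Aligner, FPKM program and annotation: not given in the sources used here. Symbols from GENCODE M21 matched 44395 of 45320 identifiers. Irf8 had no match and was not analysed here.

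All genes averaging 1 FPKM or more were tested on log2(FPKM + 0.5) with limma 3.58.1 in R 4.3.3 (variance trend, 3 residual degrees of freedom, two-sided, Benjamini-Hochberg over all tested genes, threshold 0.05), after a check on simulated data. Fold changes on this scale understate changes of low genes. FPKM gave no read counts, so no counting interval was computed. Python 3.11.15, pandas 2.3.3, numpy 2.4.6 and matplotlib 3.10.9 were used for summaries and figures.

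The members, classes and lists were chosen with earlier results of these data known. All members are given; of each further list the 2 tested genes of smallest p are named, except 1 gene that is not reported here. Spi1, Ccl7, Lpl, Cd36 and Plin2 were named after their values were seen. Alternatives covered the pseudocount, filter, scaling, variance model, weights, a muscle covariate, the identical tables and each library left out. Rescaling to the pan-macrophage sum was chosen after seeing the data.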

Additional observations from a re-analysis of the deposited data

How the results depend on the processing

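No paired analysis was possible because the groups share no replicate numbers. The number of genes called over all tested was 6, and was 2 with a pseudocount of 0.1, 0 without a filter on low values, 10 with sample weights, 1766 with the muscle covariate and 0 to 158 when 1 library was left out. The count of members called was 0 in each setting but the muscle covariate, where it was 1 of 29 (Ccl6), beside 1766 of all 13527 tested genes. With the filter at 0.1 FPKM, without variance trend, and with treated 33 and 35 counted separately the members called were 0 as well. The median of the inflammatory and recruitment class, 0.03 in the comparison as reported, was 0.49 with sample weights, -0.68 with the muscle covariate, and -0.18 to 0.52 with 1 library left out. The other class medians moved by less than the spread between libraries, though their signs changed. Estimates that changed sign, none of them called, numbered 14 of 29 without untreated 15 and 14 with the muscle covariate. Rescaling to the pan-macrophage sum changed 3 signs. Where only 1 treated library was left, it was assumed to vary like the untreated ones. The cause of these changes was not tested. Read totals are unknown, so the precision of the 7 members below the filter cannot be given.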
